A study of Mus musculus with 4 samples.

Results

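Immune cells were looked for among sorted alveolar epithelial cells of the mouse lung, in 4 single-cell libraries that were gated against CD45. A cell was taken as an immune cell when it held at least 1 UMI (unique molecular identifier, 1 counted transcript) of at least 3 of 10 genes, namely Ptprc, Cd52, Laptm5, Coro1a, Fcer1g, Tyrobp, Cd3e, Cd79a, Marco and C1qa. This rule found 135 immune cells among 9519 cells (1.42%, exact 95% interval 1.19 to 1.68%). They were set against the 8953 cells of the same libraries that held none of the 10 genes, while 431 cells with 1 or 2 of the genes stood in neither set. Because the cells were chosen by their own expression, every difference between these sets is a description without a test, and intervals cover counting error only.

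The mice carried Sftpc-CreER, a tamoxifen-inducible Cre driven by an AT2 cell promoter, together with a Rosa26-Zsgreen reporter and Hopx-RFP, on a mixed FVB/C57BL6 background, and all had received tamoxifen. Alveolar type I (AT1) cells, the flat cells of the gas exchange surface, were sorted as RFP+Pdpn+GFP-CD45- at postnatal day 3 (P3), P15 and P60 from lungs digested with elastase, neutral protease, DNase I and type I collagenase. Alveolar type II (AT2) cells, the surfactant-making cells, were sorted as GFP+CD45- at P60 after digestion with neutral protease and DNase I. Each of the 4 groups was 1 library of the 10x 3′ chemistry, so ages, sorts and digestions cannot be told apart from single libraries and no p-value is given.

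The lung holds resident macrophages of the airspace, which clear surfactant and debris, and macrophages of the tissue between the alveoli, along with monocytes and neutrophils that arrive from the blood and lymphocytes that patrol the tissue. Nearly all of these cells carry CD45, the receptor tyrosine phosphatase encoded by Ptprc, on their surface, and an antibody against it is the usual means of removing them from an epithelial sort. AT2 cells are also known to express MHC class II genes.

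The libraries held 3149 AT1-sorted cells at P3, 2940 at P15 and 1337 at P60, and 2093 AT2-sorted cells, with median depths of 4864 to 7477 UMIs per cell over all cells. Not every gene was listed in every library. Cd3e, Cd79a, Marco and C1qa were not listed at P3, Cd79a was not listed at P15, and Cd3e and Marco were not listed in either P60 library. The AT2 library listed Cd79a and C1qa at 0 in every cell. The rule could therefore use 6 genes with UMIs at P3, 9 at P15, 8 in the AT1 library of P60 and 6 in the AT2 library. Pairs of libraries shared 49 cell barcodes in all, of which 2 belonged to an immune cell in either library and 0 in both. No doublet caller was run on the immune cells and none was removed; cells with genes of a second lineage are counted where they occur.

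The immune cells numbered 14 of 3149 at P3 (0.445%, 0.243 to 0.745%), 56 of 2940 at P15 (1.90%, 1.44 to 2.47%) and 45 of 1337 at P60 (3.37%, 2.47 to 4.48%) in the AT1 libraries. In the P60 AT2 library they numbered 20 of 2093 (0.956%, 0.585 to 1.47%). Among the AT1 libraries the interval at P3 lay below the others, and those of P15 and P60 met at 2.47%. Every cell was also thinned at random to 1500 UMIs. This left out 0, 36, 67 and 49 shallower cells, of which 0, 3, 9 and 2 were immune cells. The rule then found 10, 46, 31 and 16 immune cells, or 0.318, 1.58, 2.44 and 0.783% of the remaining cells. With the 6 rule genes listed in all 4 files only, the counts were 14, 52, 40 and 20.

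**Figure D1:**
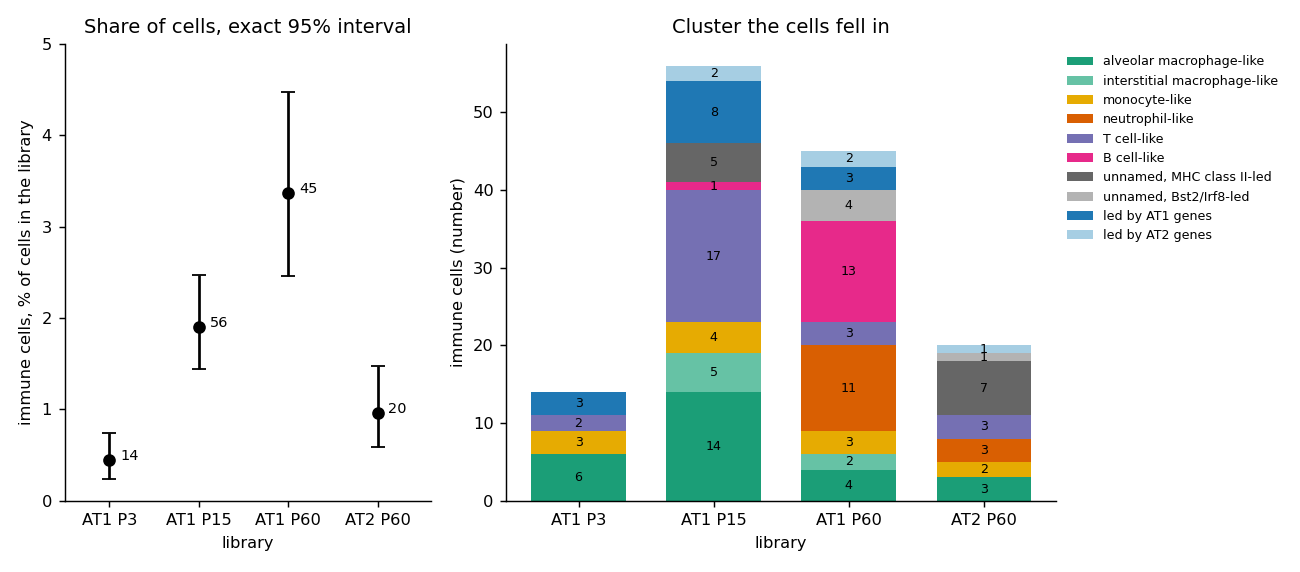
The left panel plots the immune cells as a percentage of all cells in each of the 4 libraries, with exact 95% intervals and the number of cells beside each point. The right panel stacks the number of immune cells in each cluster, with clusters ordered as in the legend from bottom to top. The P15 library held the most immune cells (56) and the P60 AT1 library the highest share (3.37%), and in this clustering neutrophil-like cells appeared in the P60 libraries only.

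Ptprc, a protein-coding gene on chromosome 1 (GRCm38, positions 138062861 to 138175708, minus strand), was detected in 13 of 14 immune cells at P3, 30 of 56 at P15, 32 of 45 at P60 in the AT1 library and 14 of 20 in the AT2 library. Among all other cells of the same libraries it was detected in 3, 2, 12 and 2 cells, which is 0.0957, 0.0693, 0.929 and 0.0965%. Its level over the summed immune cells was 276 CPM (192 to 384) at P3, 206 CPM (156 to 266) at P15, 428 CPM (337 to 534) at P60 and 433 CPM (283 to 635) in the AT2 library, where CPM is UMIs per 1000000 UMIs. Transcripts of the gene behind the surface protein that the gate excludes were thus present in 89 immune cells.

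The other rule genes followed lineage. Tyrobp and Fcer1g, the adaptor chains of activating receptors on myeloid and natural killer cells, were found in all 12 monocyte-like, all 14 neutrophil-like and all 7 interstitial macrophage-like cells, against 5 and 5 of 25 T cell-like cells and 4 and 2 of 14 B cell-like cells. Among the T cell-like cells, each was found in 1 of 17 at P15 and in all 3 of the P60 AT1 library. Coro1a, a leukocyte actin regulator, was found in 24 of 25 T cell-like and 21 of 27 alveolar macrophage-like cells. Cd52, a small surface glycopeptide, was found in 24 of 25 T cell-like cells but in 10 of 27 alveolar macrophage-like cells. Laptm5, a lysosomal membrane protein of blood cells, was found in 25 of 27 alveolar macrophage-like and in 5 of 14 neutrophil-like cells.

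Among the lineage genes of the rule, Cd3e of the T cell receptor complex was found in 23 of 56 immune cells at P15 and in 0 of the 2884 other cells, which by a limit of 3 counts allows a share of up to 0.104%. Cd79a of the B cell receptor complex was found in 16 of 45 immune cells at P60, against 21 of 1292 other cells (1.63%). C1qa, a chain of the complement component C1q, was found in 8 of 56 immune cells at P15 and 4 of 45 at P60, and Marco, a scavenger receptor of alveolar macrophages, in 9 of 56 at P15. Stray transcripts of the shared genes were most frequent outside the immune cells of the P60 AT1 library, where 6.89% of the other cells held Tyrobp, 3.41% Fcer1g and 2.17% Cd52, while Tyrobp was found in 0.766, 0.798 and 0.868% of the other cells at P3, at P15 and in the AT2 library. In that P60 library 205 cells (15.3%) held exactly 1 rule gene.

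The 21 cells that just met the rule, with exactly 3 of the genes, had a median of 2148 UMIs, and 20 of them also held 3 or more of 27 further leukocyte genes that the rule did not use. The 26 cells that just missed it, with exactly 2, had a median of 7081 UMIs, and 10 of them held 3 or more of those genes. The further leukocyte genes summed to 5591 CPM in cells with exactly 3 rule genes and to 911 CPM in cells with exactly 2, and AT1 markers summed to 21694 and 47326 CPM. Of the 114 immune cells with 4 or more rule genes, 114 held 3 or more of the further leukocyte genes.

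The 135 cells were clustered together and each cluster was named only where marker genes of 1 cell type led it. Clusters with myeloid names (macrophage, monocyte or neutrophil) held 60 of the 135 cells (44.4%, 35.9 to 53.2%) and clusters with lymphoid names (T or B cell) held 39 (28.9%, 21.4 to 37.3%). A further 17 cells (12.6%, 7.51 to 19.4%) fell into 2 clusters that could not be named, and 19 cells (14.1%, 8.69 to 21.1%) fell into 2 clusters led by AT1 or AT2 genes. By library, myeloid-named clusters held 9 of 14 cells at P3, 23 of 56 at P15, 20 of 45 at P60 and 8 of 20 in the AT2 library, and lymphoid-named clusters held 2, 18, 16 and 3. The genes that lead a cluster also made it, so their levels below are descriptions.

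**Figure D2:**
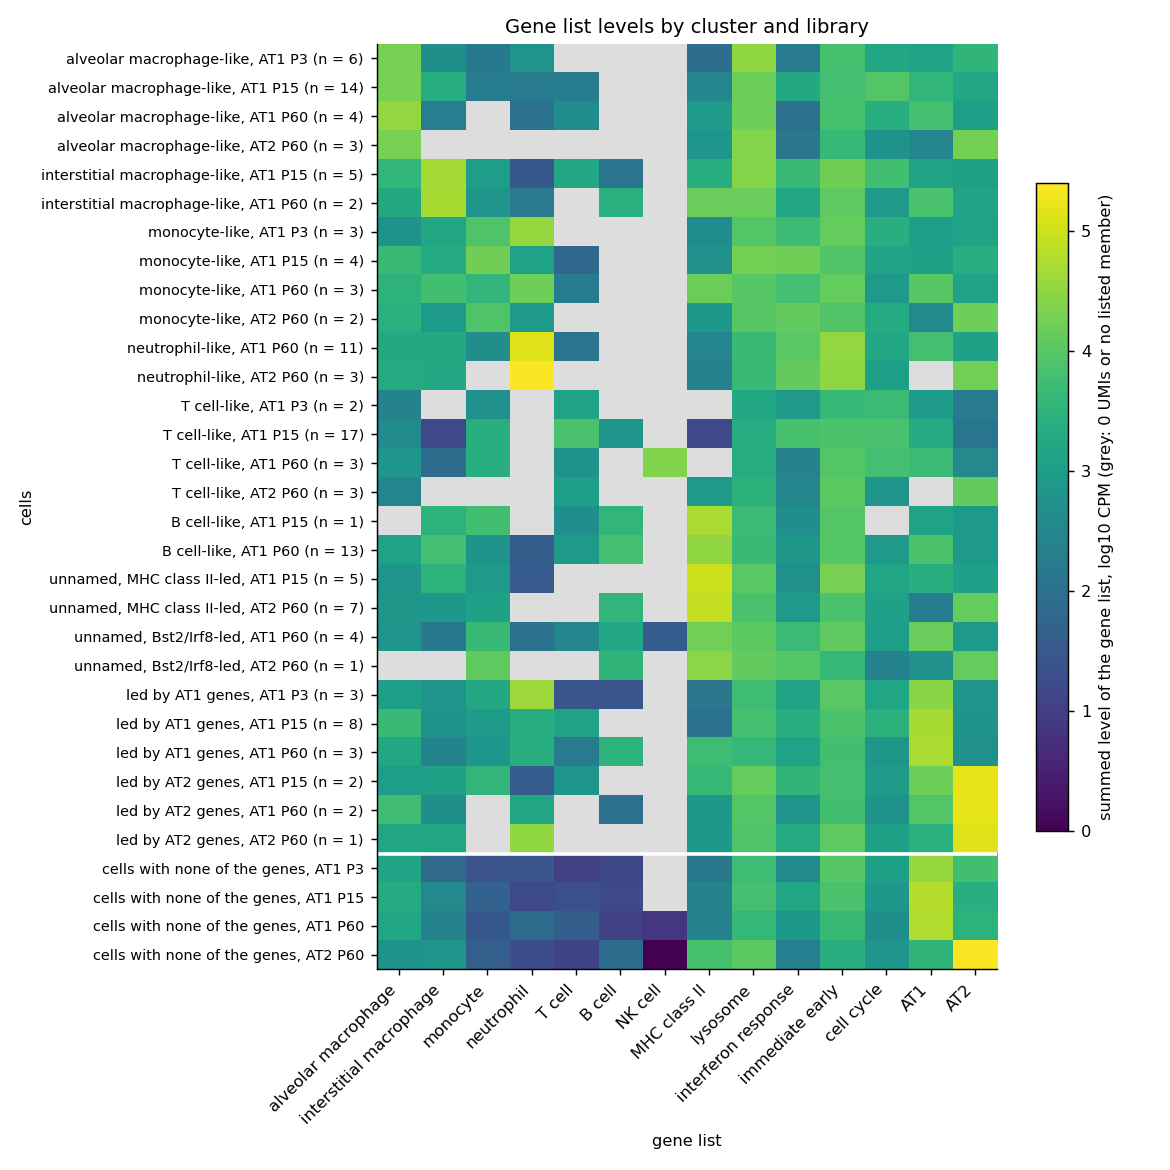
The heat map shows the summed level of 14 gene lists (columns, log10 CPM) in each cluster and library (rows, with the number of cells), above the cells with none of the rule genes in the bottom 4 rows. Each list of the 6 immune cell types that name a cluster reaches its highest level in that cluster, the neutrophil list reaches 133674 and 236057 CPM in neutrophil-like cells, and the bottom rows are bright in AT1 or AT2 markers.

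Alveolar macrophage-like cells were found in all 4 libraries, 6 at P3, 14 at P15, 4 at P60 and 3 in the AT2 library. At a clustering resolution of 2 the clusters of this name held 0 cells of the AT2 library. The cluster led by AT2 genes then held 4 cells of that library, against 1 in the main clustering. Ear1 and Ear2, ribonucleases of the eosinophil-associated family that mouse alveolar macrophages express, reached 1079 and 1211 CPM at P3, 4189 and 4614 CPM at P15 and 7487 and 8631 CPM at P60, and were not listed in the AT2 library. Chil3, a chitinase-like protein, stood at 2394, 7903 and 5620 CPM at P15, at P60 and in the AT2 library. The chemokine gene Ccl6 stood at 16074 CPM at P3, against 6031, 4471 and 8009 CPM in the other libraries in the same order. Ctsd, which encodes the lysosomal protease cathepsin D, stood at 10327 CPM at P3, 2898 CPM at P15, 2392 CPM at P60 and 4777 CPM in the AT2 library. The lysosome list as a whole summed to 31266, 15716, 16117 and 24730 CPM in these cells, against 5302, 6459, 4000 and 10821 CPM in the cells with none of the rule genes.

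At P15 the alveolar macrophage-like cells came from 2 clusters. In the cluster of 8 cells, all from this library, the median cell had 1.5% of its UMIs in cell cycle genes (range 0.101 to 2.46%) and 7 cells held 3 or more of the 19 listed cell cycle genes. In the cluster of 6 cells, the median was 0.135% (0.0528 to 0.242%) and 2 cells did. Stmn1, a tubulin-binding phosphoprotein of dividing cells, stood at 1276 CPM over the 14 cells, Birc5, a component of the chromosomal passenger complex, was detected in 6 of them, and Top2a and Mki67 in 5 and 3. At P3, at P60 and in the AT2 library the medians were 0.107, 0.210 and 0.0398%. Col3a1, a fibrillar collagen gene, was present in 2 of the 14 cells at P15 at a summed 2173 CPM.

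Interstitial macrophage-like cells numbered 5 at P15 and 2 at P60. All 7 held C1qa, C1qb and C1qc, the 3 chains of complement C1q, at 5955, 4838 and 4466 CPM at P15 and at 5136, 2889 and 2247 CPM at P60. Apoe, the lipid carrier apolipoprotein E, stood at 30548 and 38042 CPM, and Csf1r, the receptor that maintains macrophages, at 1023 and 1284 CPM. Pf4, a chemokine best known from platelets, was among the leading genes at 1179 and 3531 CPM. MHC class II genes summed to 2481 CPM at P15 and 14446 CPM at P60, and the T cell gene Cd3e was present in 4 of the 5 cells at P15. At P15, 3 of the 5 cells held 11, 8 and 5 genes of the T cell list. At P60, 1 of the 2 cells held 5 genes of the B cell list and had 2.13% of its UMIs in MHC class II genes, against 0.527% in the other. Many of these cells thus held genes of a second lineage.

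Monocyte-like cells numbered 3 at P3, 4 at P15, 3 at P60 and 2 in the AT2 library. Plac8 was detected in all 12 cells, at 3657, 7725, 1685 and 6866 CPM in that order of libraries. Ly6c2, a surface protein of classical inflammatory monocytes in mice, stood at 2528 and 2707 CPM at P3 and P15, at 0 UMIs at P60 and at 999 CPM in the AT2 library. Ace, which mouse patrolling monocytes carry, had 0 UMIs at P3, 66 CPM at P15 and 595 CPM in all 3 cells at P60. Fn1, the fibronectin gene, was present in all 3 cells at P3, in 1 at P15 and in 0 at P60. MHC class II genes summed to 416 and 528 CPM at P3 and P15, to 15067 CPM at P60 and to 749 CPM in the AT2 library. The P60 level rests on 1 cell with 3.37% of its UMIs in these genes, since the others had 0.0835 and 0.182%. Genes of the interferon response list summed to 4966, 17100, 6245 and 12734 CPM.

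The 3 monocyte-like cells at P3 also held neutrophil genes. S100a8, a subunit of the calcium-binding protein calprotectin, gave 584, 402 and 32 UMIs in these cells, and its partner S100a9 gave 120, 60 and 0. A cell led by AT1 genes in the same library held 814 UMIs of S100a8, 549 of S100a9 and 39 of the resistin-like gene Retnlg beside 103 of the AT1 gene Ager. That cell and the first 2 of the monocyte-like cells carried 95.7% of all S100a8 UMIs in the immune cells at P3, so the level of 14853 CPM there rests on 3 cells.

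Neutrophil-like cells were found in the P60 libraries, 11 in the AT1 sort (24.4% of its immune cells, 12.9 to 39.5%) and 3 in the AT2 sort (15.0%, 3.21 to 37.9%). None was found among the 14 immune cells at P3 or the 56 at P15, which by the limit of 3 counts allows shares of up to 21.4 and 5.36%. At a resolution of 0.25 the neutrophil-like cluster held 3 cells at P3, 6 at P15, 16 at P60 and 6 in the AT2 library. No monocyte-like cluster and none led by AT2 genes was left at that resolution, so these counts alone do not show neutrophil-like cells at P3 or P15. In the main clustering, monocyte-like cells had up to 5.64% of their UMIs in neutrophil genes at P3 and up to 0.309% at P15. The lowest share in a neutrophil-like cell of the P60 AT1 library was 1.61%. At P15 a cell led by AT1 genes, with 1593 UMIs, held 60 of the 98 S100a8 UMIs and all 55 S100a9 UMIs of the immune cells. In the P60 libraries S100a8 and S100a9 stood at 72497 and 45457 CPM in the AT1 sort and at 142499 and 71933 CPM in the AT2 sort. Retnlg stood at 11027 and 21625 CPM, and Il1b, the gene of the cytokine interleukin-1 beta, at 9854 and 8195 CPM. Csf3r, the receptor for granulocyte colony-stimulating factor, was detected in all 11 cells of the AT1 sort at 1760 CPM, and Cxcr2, a chemokine receptor that guides neutrophils, in 8 of them at 645 CPM. Immediate early genes summed to 33961 and 31869 CPM in these cells, with Nfkbia, an inhibitor of NF-kappa-B, at 11790 and 11154 CPM, against 4540 and 2462 CPM for the whole list in the cells with none. These were the shallowest immune cells, with medians of 1388 and 1396 UMIs.

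T cell-like cells numbered 17 at P15, where they were the largest class (30.4%, 18.8 to 44.1%), 2 at P3, 3 at P60 and 3 in the AT2 library. At P15 the T cell receptor complex genes Cd3e, Cd3d and Cd3g were each detected in 14 of the 17 cells, at 920, 1045 and 1185 CPM, with the receptor kinase Lck in 13, the adaptor Lat in 14 and the transcription factor Tcf7 in 12. Ccr7, the lymph node homing receptor of naive lymphocytes, was detected in 12 of them at 702 CPM and Lef1, a partner of Tcf7, in 10 at 421 CPM. Cell cycle genes summed to 7156 CPM in these cells and 10 of the 17 held 3 or more, and Ifi27l2a, an interferon-inducible gene, stood at 4771 CPM in 8 cells. The median cell had 0.175% of its UMIs in cell cycle genes. The highest shares, 1.85 and 1.47%, were in cells of 14904 and 6267 UMIs, so the sum rests largely on these 2 cells. The cell of 14904 UMIs also had the highest share of interferon response genes (1.97%, against a median of 0.103%). Among the 17 cells, 1 held 13 UMIs of Cd79b, 15 of Ebf1 and 12 of Vpreb3, which are B cell genes, and 1 UMI of Il7r as its only T cell list gene. The cell cycle list also holds genes that resting cells express, such as the histone variant H2afz, which 11 of the 17 cells held at 967 CPM.

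The T cell-like cells of the other libraries rest on fewer markers, because the Cd3 genes were not listed there. The 2 cells at P3 both held Lck (2 UMIs each) and the transcription factor Ets1 (3 and 4 UMIs), and 1 of them held Tcf7, Bcl11b and Cd27 while the other held 24 UMIs of Tyrobp. The 3 cells of the P60 AT1 library held the cytotoxic lymphocyte chemokine Ccl5 at 35, 92 and 91 UMIs and the granule protease Gzma at 14, 43 and 0 UMIs. Ccl5 and Gzma were the only genes of the natural killer list with UMIs in that library, and Tyrobp was present in all 3 cells at 6, 6 and 1 UMIs. Fcer1g was present in all 3 as well. The T cell name of these 3 cells comes from the cluster they fell in, and T cells and natural killer cells could not be told apart among them. The 3 cells of the AT2 library all held Bcl11b, a factor of T cell commitment, at 1, 1 and 2 UMIs, Coro1a and Laptm5, and none held Fcer1g. A median of 1 listed T cell marker was detected per cell in each P60 library, against 10 at P15.

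B cell-like cells numbered 13 in the P60 AT1 library (28.9%, 16.4 to 44.3%) and 1 at P15. All 13 held the B cell receptor chains Cd79a and Cd79b, at 1603 and 1326 CPM, and the transcription factor Ebf1, which sets B cell identity, was found in 12 at 1227 CPM. The surface antigen Ms4a1 (CD20) was found in 9, the adaptor Bank1 in 11 and Ly6d in 11. MHC class II genes summed to 32072 CPM, with the invariant chain Cd74 at 17787 CPM and H2-Aa at 4709 CPM, all detected in 13 of 13 cells. The single B cell-like cell at P15 held Cd79b (6 UMIs), Ebf1 (2 UMIs) and Ccr7, fewer B cell UMIs than the T cell-like cell of that library described above. In the P60 AT1 library 3 immune cells held 5 or more markers of both the interstitial macrophage and the B cell list, and cells with 2 such lineages there had a median of 9742 UMIs, against 2336 over all its immune cells. Among them were 2 of the B cell-like cells, of 9742 and 15485 UMIs. These had 0.205 and 0.213% of their UMIs in B cell genes, against a median of 0.915% over the 13. Being deep, they weigh heavily in the summed levels given above for the class. At P15, 5 cells held 5 or more markers of 2 lineages, with a median of 8394 UMIs against 4317, and at P3 and in the AT2 library there were 0.

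The unnamed clusters numbered 2. The first was led by Cd74 and H2-Aa and held 5 cells at P15 and 7 in the AT2 library. MHC class II genes took 98937 and 78391 CPM in them, the highest level of any cluster in either library, against 263 and 6679 CPM in the cells with none. At P15 all 5 cells held Cst3 (cystatin C, 35868 CPM) and Plbd1 (1015 CPM), with Cd79b and Ebf1 at 0 UMIs. In the AT2 library 5 of the 7 cells held Cd79b (1550 CPM), Ebf1 (605 CPM) and Ly6d (907 CPM), and at a clustering resolution of 2 the cluster split into 7 cells, 5 from P15 and 2 from the AT2 library, and 5 cells from the AT2 library. Ccr7, Fscn1 and Zbtb46 of the dendritic cell list were listed at P15 with 0 UMIs in these cells, and Xcr1 and Zbtb46 likewise in the AT2 library. The list had 4 members with UMIs at P15 and 3 in the AT2 library, so the genes named here at 0 are only part of it.

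The second unnamed cluster held 4 cells of the AT1 sort and 1 cell of the AT2 sort, both at P60. It was led by Bst2 (tetherin, 2708 and 4477 CPM), by Irf8, a transcription factor of dendritic and monocytic cells (2634 and 4477 CPM), and by the transcription factor Tcf4 (1720 and 1053 CPM). All 5 cells also held Ly6c2, Plac8, Ly6d and H2-Aa. No cell type list outnumbered the others among the leading genes, since Ly6c2 and Plac8 stood on the monocyte list, Irf8 on the dendritic list and Ly6d on the B cell list.

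Other immune types were sought by their own lists. None of the 135 cells held 3 or more genes of the natural killer cell, dendritic cell, group 2 innate lymphoid cell, mast cell and basophil or platelet lists. Few members of these lists were listed with UMIs, apart from 8 of 9 platelet genes at P3, where 20 cells with none of the rule genes and 10 with 1 or 2 held 3 or more. For natural killer cells these were 0, 0, 2 and 1 of 17 genes, and for dendritic cells 3, 4, 1 and 3 of 14, in the order P3, P15, AT1 P60 and AT2 P60. For group 2 innate lymphoid cells they were 2, 3, 1 and 2 of 7, and for mast cells and basophils 2, 2, 2 and 0 of 10. Where fewer than 3 members had UMIs no cell could hold 3, so the absence of these types there was fixed in advance. The alveolar macrophage list is not specific to macrophages in these libraries, since 47.9, 19.0, 10.5 and 8.33% of the cells with none held 3 or more of its genes in that order. The tetraspanin Cd9 alone was held by 99.1, 96.4, 94.9 and 81.0% of the cells with none and Ctsd by 79.4, 70.2, 59.3 and 41.9%, while Ear1, where listed, was held by at most 0.374%.

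The epithelial-led clusters held cells with leukocyte and epithelial transcripts together. The 14 cells led by AT1 genes, 3 at P3, 8 at P15 and 3 at P60, had AT1 markers at 27822, 48512 and 50757 CPM, against 36994, 64352 and 57619 CPM in the cells with none. Ager, which encodes the surface receptor RAGE and is a defining AT1 gene, stood at 11317, 24353 and 20093 CPM in them, and the 27 further leukocyte genes at 3772, 3893 and 2878 CPM, against 125, 135 and 184 CPM in the cells with none. Ptprc was detected in 5 of the 14, Cd3e in 3 of the 8 at P15 and Cd79a in 2 of the 3 at P60. Their median was 10045 UMIs at P3, against 7451 in the cells with none, 4782.5 at P15, against 4922, and 10273 at P60, against 5073. The part of depth in this grouping was not tested. The 5 cells led by AT2 genes, 2 at P15, 2 at P60 and 1 in the AT2 library, had the surfactant protein C gene Sftpc at 95849, 93672 and 82436 CPM and Ptprc in all 5.

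Outside those clusters, 11, 46, 40 and 19 immune cells remained at P3, at P15, at P60 and in the AT2 library. Their median cell had 0.128, 0.191 and 0.713% of its UMIs in the 21 AT1 markers at P3, P15 and P60, against 4.04, 6.68 and 5.76% in the median cell with none of the rule genes. In the AT2 library, their median cell had 1.54% of its UMIs in the 17 listed AT2 markers with UMIs, against 23.2% in the median cell with none, and 0% against 0.319% in the AT1 markers. The lowest value of any immune cell in the AT2 library was 0.814% of UMIs in AT2 markers. Pdpn, the surface marker of the AT1 gate, was detected in 27.3, 21.7 and 40.0% of these immune cells at P3, P15 and P60, at 33.1, 78.1 and 227 CPM, against 95.8, 92.6 and 91.3% and 758, 1193 and 1246 CPM in the cells with none. With the epithelial-led clusters included, Pdpn was detected in 42.9, 35.7 and 46.7% of the immune cells.

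**Figure D3:**
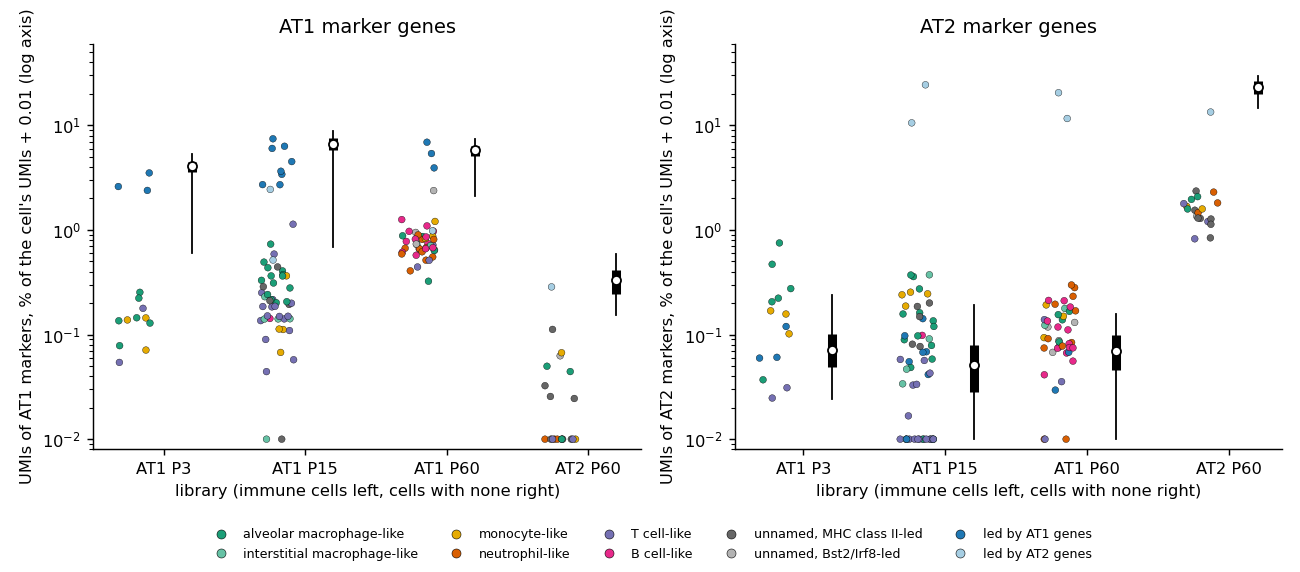
Each point is 1 immune cell, placed by the share of its UMIs in AT1 markers (left panel) or AT2 markers (right panel) with 0.01 added, on a log axis, by library and coloured by cluster. The black bars beside them give the cells with none of the rule genes as median (white dot), quartiles (thick) and 5th to 95th percentile (thin). Immune cells outside the epithelial-led clusters lie below the quartiles of the cells with none in AT1 markers in each AT1 library and in AT2 markers in the AT2 library, and the AT2-led cells stand apart at the top of the right panel.

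The immune cells also differed in depth from their neighbours. Their median was 9003.5 UMIs and 2377.5 genes at P3, against 7451 UMIs and 2535 genes in the cells with none, and 4317 UMIs and 1632 genes at P15, against 4922 UMIs and 2020 genes. In the P60 AT1 library the medians were 2336 UMIs and 1096 genes, against 5073 UMIs and 2079 genes, and in the AT2 library 2580 UMIs and 1076.5 genes, against 4860.5 UMIs and 1548 genes. Without the clusters led by AT1 or AT2 genes, which held 3 of the 14 cells at P3, the median at P3 was 7170 UMIs, below the 7451 of the cells with none, and the others were 3414.5, 2191.5 and 2512 UMIs. Malat1, a nuclear long noncoding RNA, took 1.70, 1.59, 6.40 and 3.51% of the summed immune UMIs at P3, at P15, at P60 and in the AT2 library, against 4.03, 6.40, 15.7 and 4.21% in the cells with none.

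**Figure D4:**
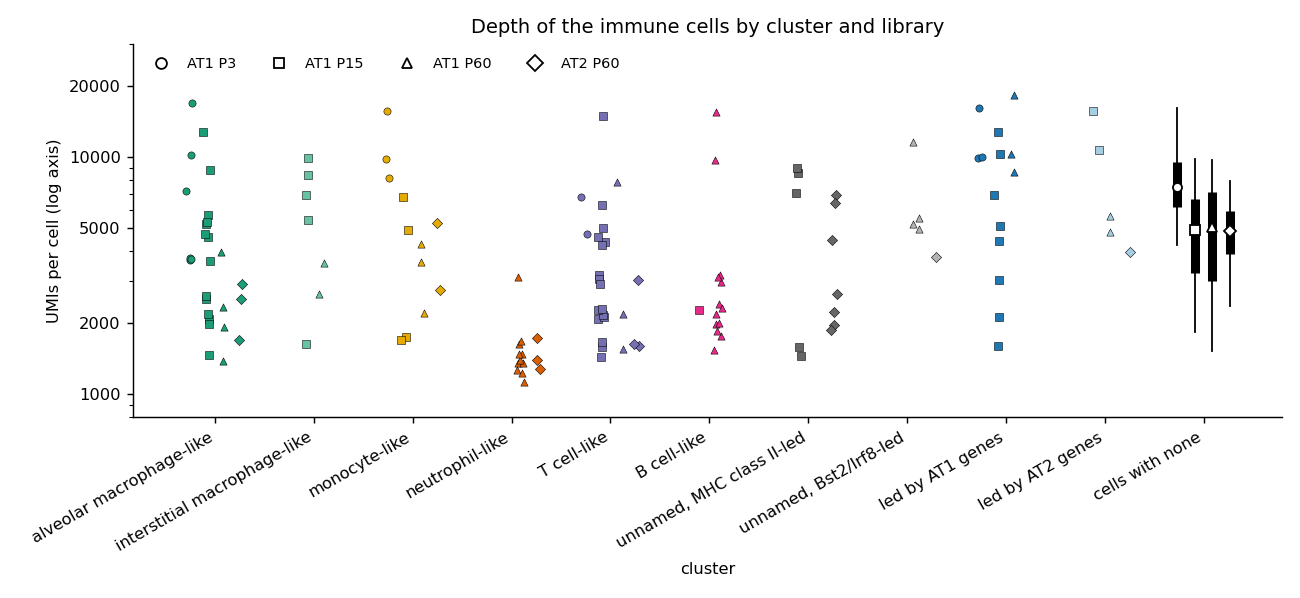
UMIs per cell (log axis) of each immune cell by cluster, with a symbol per library, and at the right the cells with none of the rule genes as median (symbol), quartiles (thick bar) and 5th to 95th percentile (thin bar). Neutrophil-like cells sit lowest, between 1121 and 3105 UMIs, and the cells led by AT1 genes have a median of 9268.5 UMIs.

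Summed immune cells were then set against the summed cells with none, gene by gene within each library. A gene was compared when it had at least 200 CPM and 20 UMIs in the set where it was higher, and was counted as higher or lower at a ratio of at least 2. At P3, 180 of 921 compared genes were higher in the immune cells (19.5%) and 233 were lower (25.3%). At P15, 275 of 1035 genes were higher (26.6%) and 317 lower (30.6%). At P60, 297 of 1010 were higher (29.4%) and 292 lower (28.9%) in the AT1 library. In the AT2 library 180 of 633 were higher (28.4%) and 170 lower (26.9%). A trimmed-mean scaling, which sets the bulk of the genes equal, moved the AT2 ratios by 0.70 on the log2 scale and gave 106 genes higher and 269 lower there, while it moved the others by 0.02, 0.03 and -0.03.

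Cd53, Ctss and Pld4 were among the 10 genes with the largest upward ratios in all 4 libraries, among genes outside the rule held by 25% or more of the immune cells. Cd53, a tetraspanin of leukocytes, had 379, 371, 411 and 467 CPM in the immune cells, against 0.117, 0.205, 1.25 and 0 CPM in the cells with none, and was held by 100, 69.6, 77.8 and 80.0% of the immune cells. Ctss, the antigen-processing protease cathepsin S, had 1098, 1074, 516 and 1066 CPM against 0.389, 0.477, 0.714 and 0.299 CPM. Pld4, an endolysosomal exonuclease, had 324, 209, 272 and 400 CPM against 0, 0.136, 0.535 and 0.200 CPM. Spi1, the gene of the myeloid and B cell transcription factor PU.1, was among the top 10 in both P60 libraries, at 378 and 667 CPM against 0.535 and 0.200 CPM.

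The leading genes differed by library along with the classes found there. At P3 Ear2 stood 6489-fold higher (interval 1725 to 54738, on 2 UMIs in the cells with none), Ccl6 3931-fold higher (2849 to 5573) and Ear1 at least 3515-fold higher against a floor of 3 UMIs over the cells with none. At P15 Ms4a6b was 3067-fold higher (830 to 25625), the lymphotoxin gene Ltb 2697-fold (728 to 22568) and Lck 1560-fold (413 to 13181), beside Ear1 and Ear2. At P60 Cd37, a tetraspanin of mature B cells, was 1557-fold higher (267 to 62694) and Ltb 664-fold (217 to 3305). In the AT2 library Il1b was 2784-fold higher (899 to 13956) and S100a8 1873-fold (1443 to 2469). Both were held by 25% of the immune cells there, and the top 3 cells held 76.0% of the Il1b and 90.1% of the S100a8 UMIs. Apart from Ccl6, S100a8 and, at P15, Ear1 and Ear2, each of these genes had 0 to 3 UMIs in the cells with none, so the ratios rest on small numbers in that set.

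Among the genes with the largest downward ratios were several known from epithelium. At P3 Sftpa1 and Sftpc, which encode surfactant proteins, were 60.9-fold (10.9 to 2404) and 26.8-fold (16.7 to 45.9) lower, and Meg3, a long noncoding RNA, was 59.5-fold lower (16.5 to 492). Sftpa1 and Meg3 had 1 and 2 UMIs in these immune cells. Sftpa1 was held by 18.9% of the cells with none, and Sftpc by 73.3%, against 64.3% of the immune cells for Sftpc. In the median cell, AT2 markers at P3 were higher in the immune cells (0.128 against 0.0620% of UMIs). At P15 Mfap4, a matrix protein known from fibroblasts, was 48.9-fold lower (13.5 to 404), Scgb1a1, the secretoglobin of club cells, 18.5-fold lower (14.7 to 23.5) and Hopx, whose locus drives the RFP of the gate, was 9.19-fold lower (6.61 to 13.2). At P60 Tjp1, a tight junction scaffold, was 7.42-fold lower (3.17 to 22.9). In the AT2 library Lamp3, a lamellar body membrane protein, was 28.8-fold lower (9.86 to 140) and the tight junction gene Cldn3 30.1-fold lower (5.41 to 1190). Mfap4 at P15 and Cldn3 in the AT2 library had 2 and 1 UMIs in the immune cells. Mfap4 was held by 7.45% of the cells with none at P15.

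Gene lists chosen for immune functions were read as medians of the log2 ratios of their compared members, beside medians over all compared genes of -0.02 at P3, -0.07 at P15, -0.12 at P60 and 0.14 in the AT2 library. Of the 27 further leukocyte genes, 12, 13, 13 and 11 could be compared in that order of libraries and each was higher, with medians of 8.0, 7.89, 7.11 and 10.19. The whole list summed to 125, 135, 184 and 187 CPM in the cells with none, below the minimum of 200 CPM. A member could therefore be compared only where it was higher in the immune cells, so this direction was fixed in advance. MHC class II genes had 4 of 4 compared members higher at P15 (median 6.97), 6 of 6 at P60 (6.37) and 7 of 7 in the AT2 library (2.98), where the cells with none already held 6679 CPM of the list. At P3 no member reached the minimum, with the list at 182 CPM in immune cells and 144 CPM in the cells with none. Genes for actin regulators of leukocytes had medians of 1.92, 2.05, 3.40 and 2.77, and 9 of 13, 7 of 12, 9 of 12 and 11 of 12 compared members were higher.

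Ribosomal protein genes were little apart at P3, with 0 of 89 compared genes past 2-fold and a median of 0.17. At P15, 74 of 85 were higher (median 1.40), at P60 88 of 91 (1.84) and in the AT2 library 21 of 85 (0.76). Ribosomal protein genes took 22.4, 19.8, 17.6 and 23.9% of the summed UMIs of the immune cells, against 20.1, 7.61, 5.02 and 14.5% in the cells with none. The range across libraries was therefore narrower in the immune cells than in the cells with none. Under the trimmed-mean scaling the AT2-library median of these genes was 0.06. Immediate early genes had a median of -0.31 at P3, with 3 higher and 4 lower of 15, and medians of 0.89, 2.25 and 1.60 in the other libraries, with 5 of 14, 9 of 12 and 8 of 9 higher. Over all compared genes 19.5% were higher and 25.3% lower at P3, so the counts of this list there are near the overall share. In the other libraries 26.6, 29.4 and 28.4% of all compared genes were higher.

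AT1 markers were lower for all 21 compared genes in each AT1 library, with medians of -2.06, -2.42 and -1.82. AT2 markers went different ways. They had a median of -4.18 at P3, where 1 of 5 was higher and 4 were lower, of 2.81 at P15, where 7 of 8 were higher, of 1.95 at P60, where 8 of 8 were higher, and of -3.37 in the AT2 library, where 17 of 17 were lower. The top 3 immune cells held 99.7 and 97.6% of the Sftpc UMIs at P15 and P60. Per cell the direction at P3 differed from that of the sums. The median immune cell had 0.128, 0.0530, 0.101 and 1.56% of its UMIs in AT2 markers at P3, at P15, at P60 and in the AT2 library, against 0.0620, 0.0411, 0.0595 and 23.2% in the median cell with none. Without the cells led by AT1 or AT2 genes the medians of the AT2 list were -3.70, -4.15, -2.55 and -3.84.

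**Figure D5:**
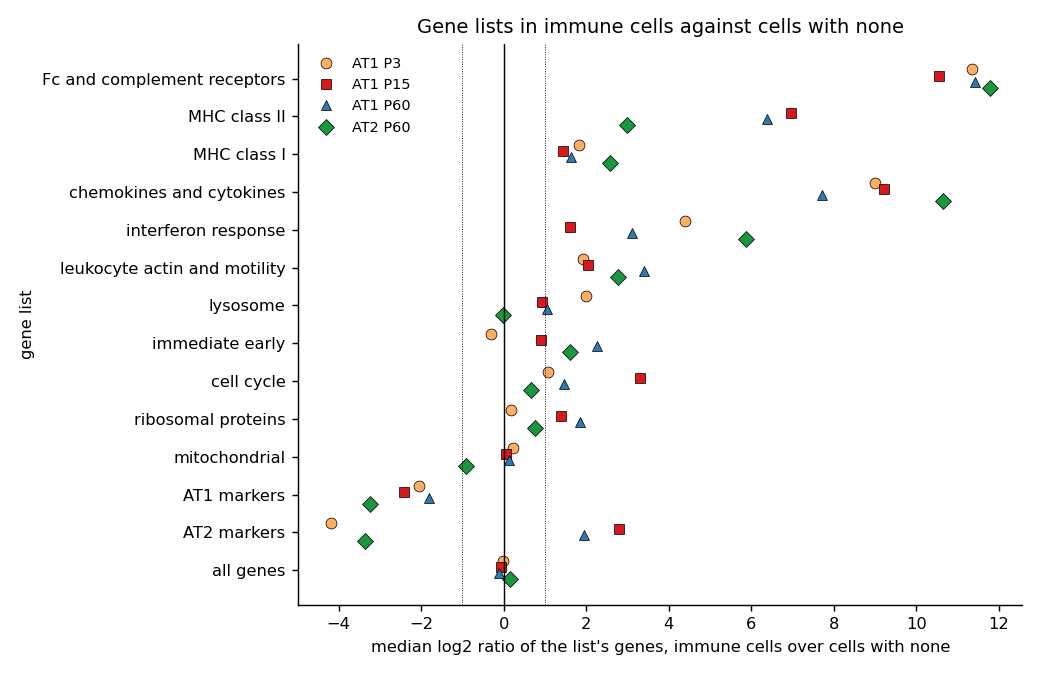
Median log2 ratio of summed immune cells over summed cells with none of the rule genes (horizontal axis) for each gene list, with a symbol per library and dotted lines at 2-fold. Fc and complement receptor genes lie between 10.54 and 11.78, AT1 markers lie to the left in every library, and AT2 markers lie to the right at P15 (2.81) and P60 (1.95) and to the left at P3 (-4.18) and in the AT2 library (-3.37).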

How the data were processed

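Single cells of 4 libraries, 1 for each group, were prepared with the 10x 3′ chemistry, and the tools Cell Ranger 1.3.1 and Seurat 2.0.0 and the builds mm10 and hg19 are named in the submitters' processing notes, with no role stated for hg19. The deposited values are natural logs of 1 plus UMIs scaled by the authors to 10000 per cell, as the values themselves show. Whole UMIs were recovered from them for 100% of values within 0.05. The libraries held 26536894, 15401939, 7276458 and 10379705 UMIs in the order P3, P15, AT1 P60 and AT2 P60. How many animals went into each library is not stated in the labels.

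Immune cells and cells with none of the rule genes were taken from the recovered UMIs. The members, gene lists and comparisons were chosen with earlier results of these data known. Immune cells were clustered together on 1000 variable genes of the 11242 listed in all files, 15 principal components, 10 neighbours and Leiden resolution 1 (scanpy 1.11.5, igraph 0.11.9). A cluster was named when markers of 1 type among its 10 leading genes outnumbered those of all other types together and at least 3 markers of that type were each detected in 25% of its cells, a rule set after the clusters were seen. No doublet caller was run. A gene not listed in a library was treated as missing, not as 0.

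UMIs were summed per kind of cell and library and given as CPM. Shares have exact Clopper-Pearson and sums exact Poisson 95% intervals, and ratios exact conditional ones (scipy 1.17.1), all covering counting error only. A share of 0 is given the limit of 3 counts of its total. A ratio against 0 UMIs used a floor of 3 UMIs over the summed cells. Genes were named by ratio, 10 in each direction per library, among those with 200 CPM and 20 UMIs, upward ones also in 25% of the immune cells, without rule, ribosomal protein, mitochondrial and haemoglobin genes, and then by level within lists and clusters. With 1 library per group no test was made. The summing and ratios were tested on simulated data. Positions of genes are from GENCODE on GRCm38. Alternatives covered the rule, depth, clustering, the cells compared, scaling and filters.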

Additional observations from a re-analysis of the deposited data

Results flagged for a closer look

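The AT2 marker list went in opposite directions between libraries, which is what singled it out; the difference was not tested. Its median log2 ratio of immune cells over cells with none of the rule genes was -4.18 at P3, 2.81 at P15 and 1.95 at P60 in the AT1 libraries and -3.37 in the AT2 library. At P15 and P60 the upward values rest on few cells, since the clusters led by AT2 genes held 2 immune cells in each of these libraries, and without the clusters led by AT1 or AT2 genes the medians were -3.70, -4.15, -2.55 and -3.84. Per cell, the median immune cell at P3 had 0.128% of its UMIs in these markers, against 0.0620% in the median cell with none. The compared members numbered 5, 8, 8 and 17.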

How the results depend on the processing

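No paired analysis was possible because each group is 1 library and no result comes from a test. The order of immune cell counts turned between P60 and P15 at a minimum of 2 rule genes (63 and 58 cells), and the median depth at P3 fell below that of the cells with none (7170 against 7451 UMIs) without the clusters led by AT1 or AT2 genes. A resolution of 0.25 merged the clusters and left B cell-like 38 cells and neutrophil-like 31 (3 of them at P3 and 6 at P15), with 0 monocyte-like, 0 interstitial macrophage-like, 0 unnamed and 0 led by AT2 genes; a resolution of 2 put 8 cells with the AT2 genes. Leaving out immune cells with AT1 or AT2 marker shares above 25% of the median of the cells with none kept 1, 15, 3 and 18 cells at P3, at P15, at P60 and in the AT2 library. In that order, 13, 39, 42 and 1 cells were above it for AT2 markers and 3, 9, 4 and 2 for AT1 markers. The AT2 medians of the cells with none were 0.0620, 0.0411 and 0.0595% in the AT1 libraries, so the AT2 cutoff was very low there. This alternative gave 63 genes higher and 114 lower at P3 and 196 and 91 at P60, on the 1 and 3 cells kept. Under it list medians changed sign for alveolar macrophage (-2.83), leukocyte adhesion (-1.34) and lysosome (-0.73) genes at P3, for AT2 (-2.30) and MHC class II (-1.54) genes at P15, and for alveolar macrophage (-0.81), endothelial (0.99), leukocyte adhesion (-0.66) and ribosomal protein (-0.21) genes at P60. With no minimum beyond 10 UMIs, 6087, 4079, 3001 and 6947 genes were higher and 1773, 2227, 1975 and 704 lower, and medians changed sign for mesothelial genes at P3 (5.55) and P15 (1.73), ciliated genes at P60 (1.5) and AT1 genes in the AT2 library (0.58). The trimmed mean gave 106 higher and 269 lower in the AT2 library. Leaving out the clusters led by AT1 or AT2 genes, chosen after seeing the data, turned the AT2 medians to -4.15 at P15 and -2.55 at P60. Of the list medians under alternatives, 648 moved little, 197 moved in size and 15 changed sign; the causes were not tested. With 14 to 56 immune cells per library, a type at a few percent of them can be missed.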
